A study of Homo sapiens with 4 samples.

Results

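The proteasome genes were followed on 4 expression microarrays, 1 for each of 2 human head and neck squamous cell carcinoma (HNSCC) lines, HN4 and HN30, and 1 for each of the cisplatin-resistant lines derived from them. Members were the genes whose name on the array is PSM followed by a letter from A to G and a number, without PSMB8 and PSMB9. The rule gave 46 genes of 43305 gene names, with 69 probes. It used no measured value, though it was chosen with earlier results of these data known. The parental cells grew in DMEM with 10% serum. The resistant cells, HN4/DDP (HN4_CR in the sample labels) and HN30/DDP (HN30_CR), had been selected in rising doses of cisplatin, which crosslinks DNA, and the medium held 20 μM of it, by the labels for 48 h. Resistance and the presence of the drug in the medium therefore cannot be told apart on these arrays. Every condition had 1 array. Within a line there is therefore no test, and the differences below describe these arrays. The arrays measured RNA of whole cultures, in which fewer cells expressing a gene and less RNA per cell cannot be told apart.

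The proteasome is the protease that degrades most short-lived and damaged proteins of a cell after they have been tagged with ubiquitin. Its 20S core is a barrel of stacked rings, with alpha subunits (PSMA genes) at the ends and beta subunits (PSMB genes), some of which carry the active sites, in the middle. The 19S regulatory particle on its ends has a ring of ATPases (PSMC genes) that unfold the substrate and non-ATPase subunits (PSMD genes) that bind ubiquitin and remove it. Dedicated chaperones assemble both parts, and other caps can take the place of the 19S particle. Transcription of the subunit genes is known to be coordinated, with the factor NFE2L1 raising many of them when proteasome activity falls short. Proteasome inhibitors are drugs that block the beta active sites.

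A level is given here as the log2 signal of the probe minus the 75th percentile of its array, so that a level of 0 is the brightness below which 75% of the spots lie. A difference is the level on the resistant array minus that on the parental array, in log2 units. The error that the scanning software assigned to the spots gave a median of 0.20 for the difference of a member, and this covers the reading of the spots and not the variation between cultures. Of the 46 members, 44 were well above background on all 4 arrays. PSMA8, a testis form of an alpha subunit, was well above background only on the HN4 array, and PSMB11, a beta subunit of the thymus, on none by its brighter probe. Between 23950 and 27625 of all genes were well above background on each array. Of 8 squamous epithelial markers, 7 were well above background on all 4 arrays, and the eighth, KRT6A, was not on the HN30/DDP array. The summed level of that list, in multiples of the 75th percentile, was 245.7 in HN4 and 259.3 in HN4/DDP, and 249.2 in HN30 and 154.0 in HN30/DDP. These sums were mostly SFN and EPCAM, and single markers moved in both directions. In HN4 KRT5 had a difference of -4.05, and KRT14, KRT17 and KRT6A had 2.33, 3.29 and 3.32. In HN30 the bright markers ran from -1.93 for KRT5 to 1.34 for CDH1. Of 4 leukocyte markers, PTPRC and CD14 were well above background on all arrays. Their list summed to 6.36, 9.29, 3.66 and 39.7 on HN4, HN4/DDP, HN30 and HN30/DDP, mostly CD14. Fibroblast markers summed to between 0.22 and 1.03 and endothelial markers to between 0.22 and 0.32, with COL1A2, COL3A1, DCN, LUM and KDR not well above background on any array. The part of these lists in the differences of the members was not tested.

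Proteasome genes were lower on the HN30/DDP array than on the HN30 array almost without exception. Of the 44 members tested in this pair, 41 were lower by more than 1.5-fold and well above background on the brighter array, and 0 were higher. Among all genes tested the same rule called 23.7% lower and 29.4% higher. The median difference of the members was -1.23, a level 2.35-fold lower, and the middle 50% of the 44 bright members lay between -1.57 and -0.87. The median over the 28330 genes tested was 0.06. Under quantile normalization 27 members were lower and the median was -0.77, and with the deposited log2 values 29 were lower and the median was -0.78. The median over all genes tested was -0.06 in both. At 2-fold, 28 members were lower against 13.3% of all genes, and at 4-fold 3 members, PSMG1, PSMC3 and PSME3, against 2.75%. These counts depended on the scaling. Under quantile normalization and the deposited log2 values, 13 bright members were lower at 2-fold and 0 at 4-fold. Among all genes bright on both arrays, the shares were 13.6% and 13.5% at 2-fold, and 2.37% and 2.31% at 4-fold. With the brightness trend removed the counts were 14 and 0, against 11.1% and 1.91%. With median scaling they were 41 and 11, against 27.0% and 5.52%. By the scaling used for the levels, all 44 bright members had a difference below 0 (42 under quantile normalization), as did 53.8% of all bright genes. Beyond 2 times the error of their spots, 43 members were lower, against 31.4% of all genes. By that error 0 were higher, against 25.3%.

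In HN4 the share of members that were lower was close to that of all genes. Of 45 members tested, 10 were lower in HN4/DDP by the same rule, against 19.1% of all genes, and 0 were higher, against 16.5%. The median difference was -0.14 for the members and -0.08 for the 26853 genes tested. Beyond 2 times the error of the spots, 5 of the 44 bright members were higher, against 17.3% of all genes, and 12 were lower, against 22.5%. At 2-fold the rule called 3 members lower, against 8.65%, and at 4-fold 1, against 2.2%, but both counts include PSMA8, which was dim in HN4/DDP and bounded only at 1.33-fold. Without it 2 members, PSMD1 and PSMD11, were over 2-fold lower and 0 were over 4-fold lower. The largest difference among the 44 bright members was that of PSMD1, at -1.56.

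**Figure D1:**
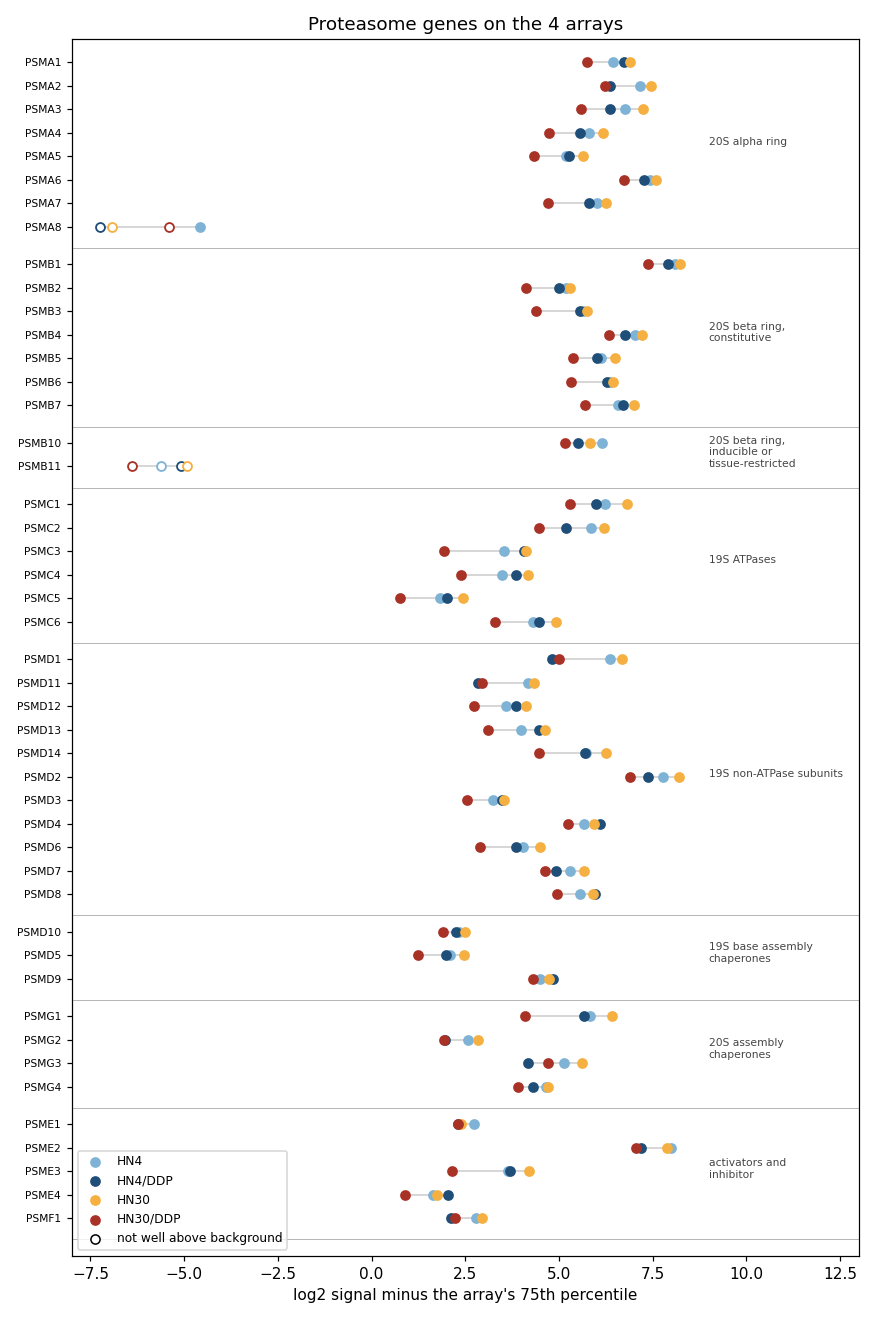
Level of each proteasome gene on the 4 arrays, as log2 signal minus the 75th percentile of the array, grouped by role, with 1 point per array; open points were not well above background. The HN30/DDP point is the lowest of the 4 for 39 of the 44 genes measured on every array, and the HN30 point is the highest for 37.

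The alpha ring gates the entry to the core. Its members PSMA1 to PSMA7 were all lower in HN30/DDP, with differences from -1.67 for PSMA3 to -0.84 for PSMA6 and a median of -1.29. In HN4/DDP the same genes had differences between -0.81 for PSMA2 and 0.30 for PSMA1, with a median of -0.20. PSMA2, with levels of 7.17 and 6.35 on the HN4 pair of arrays and of 7.47 and 6.23 on the HN30 pair, was the alpha gene that passed 1.5-fold in both lines. For PSMA1 a second probe had differences of -0.41 in HN4 and -1.27 in HN30, so that its direction in HN4 depends on the probe. PSMA8 had levels of -4.58 in HN4 and -7.23 in HN4/DDP, and -6.92 in HN30 and -5.41 in HN30/DDP, and since only the first was well above background, it was at least 1.33-fold lower in HN4/DDP than in HN4. This bound is under the 1.5-fold of the rule that its measured values passed, and without this gene 9 members were lower in HN4/DDP.

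Of the beta ring, PSMB5, PSMB6 and PSMB7 carry the constitutive active sites. PSMB5, whose chymotrypsin-like site is the main target of clinical proteasome inhibitors, had a level of 6.14 in HN4 and 6.02 in HN4/DDP, and 6.49 in HN30 and 5.38 in HN30/DDP. PSMB6, of the caspase-like site, had levels of 6.38, 6.29, 6.45 and 5.33 on the same arrays. PSMB7, of the trypsin-like site, had levels of 6.59, 6.70, 6.999 and 5.70. In all of these the HN30/DDP array stood below a narrow range of the other arrays, with 2.16-fold, 2.18-fold and 2.46-fold lower signal than HN30, while the differences in HN4 (-0.11, -0.09 and 0.11) lay within the error of the spots. Of the structural subunits PSMB1, PSMB2, PSMB3 and PSMB4, the last had the lowest difference in HN4, at -0.26, which was beyond the error of its spots. The differences of the 7 constitutive beta genes lay between -1.35 and -0.86 in HN30 and between -0.26 and 0.11 in HN4. In HN30 all 7 passed 1.5-fold by the 75th percentile scaling, with a median of -1.13. Under quantile normalization 3 did, with a median of -0.57, and PSMB5 and PSMB6 fell short at -0.55 and -0.56.

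PSMB10 is the interferon-inducible subunit that replaces PSMB7 in immunoproteasomes. Its levels were 6.16 in HN4 and 5.50 in HN4/DDP, and 5.83 in HN30 and 5.16 in HN30/DDP, which gave differences of -0.66 and -0.67. By this scaling both resistant arrays were below both parental arrays for this gene. The difference in HN30 depended on the scaling, at -0.11 under quantile normalization and -0.18 with the brightness trend described below removed, where that in HN4 was -0.50 and -0.55. PSMB11 had levels of -5.61, -5.10, -4.92 and -6.39 with its brighter probe, none of them well above background, and no fold is given. Its probe lies 16591 bases from that of PSMB5 on chromosome 14 (hg19), which holds 8 of the 46 members.

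The ATPases of the 19S base were the role with the lowest median in HN30. PSMC1 to PSMC6 lay between -2.21 and -1.51 there, with a median of -1.72, and in HN4 their median was 0.18, with PSMC3, PSMC4, PSMC5 and PSMC6 above 0 and PSMC1 and PSMC2 below. PSMC3 had a level of 3.54 in HN4 and 4.07 in HN4/DDP, and 4.14 in HN30 and 1.93 in HN30/DDP. It was therefore the member with the highest difference in HN4, at 0.53. By the 75th percentile scaling it had the second lowest in HN30 (-2.21, 4.62-fold lower), and under quantile normalization the lowest. Its probe lies at chr11:47444434-47444493 on the minus strand (hg19). PSMC4 took a like course, with levels of 3.48, 3.85, 4.18 and 2.40 and a 3.44-fold lower signal in HN30/DDP. PSMC2 differed from the other ATPases in HN4, where it was 1.60-fold lower, with levels of 5.86, 5.18, 6.22 and 4.48.

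The non-ATPase subunits of the 19S particle were the most varied in HN4. Their differences there ran from -1.56 to 0.48, with a median of -0.04 (0.10 under quantile normalization), while in HN30 all 11 were below 0, from -1.78 to -0.69 with a median of -1.38. PSMD1, a large scaffold subunit of the base that docks ubiquitin receptors, had levels of 6.37 in HN4 and 4.81 in HN4/DDP, and 6.67 in HN30 and 4.99 in HN30/DDP. Its signal was thus 2.95-fold lower in HN4/DDP and 3.20-fold lower in HN30/DDP, and the 2 resistant arrays were close to each other. The probe lies at chr2:232037369-232037428 on the plus strand (hg19), and a second probe of PSMD1 gave differences of -1.49 and -1.77. PSMD11, a lid subunit, had levels of 4.18, 2.84, 4.34 and 2.95 on the 4 arrays, again 2.52-fold and 2.63-fold lower in the resistant lines. No other bright member was over 2-fold lower in both lines. For PSMD11 the difference in HN30 was -0.98 under quantile normalization and the deposited log2 values and -0.94 with the brightness trend removed, short of 2-fold, while PSMD1 passed 2-fold in both lines under all 9 ways of processing the arrays.

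PSMD14 is the deubiquitinase of the lid, which removes the ubiquitin chain as a substrate is degraded. Its levels were 5.73 in HN4 and 5.69 in HN4/DDP, and 6.25 in HN30 and 4.47 in HN30/DDP, so that it was 3.44-fold lower in HN30/DDP and within the error of the spots in HN4. A second probe gave -0.02 in HN4 and -2.04 in HN30. PSMD13, also of the lid, had levels of 3.995, 4.47, 4.62 and 3.11, and PSMD8, another lid subunit, of 5.56, 5.98, 5.92 and 4.94. PSMD4, a ubiquitin receptor, had levels of 5.66, 6.10, 5.93 and 5.24. Each of these last genes was higher in HN4/DDP than in HN4, by 0.48, 0.42 and 0.44, and lower in HN30/DDP than in HN30. The probe of PSMD4 is also assigned by the array to a transcript of PIPSL, a fusion gene that contains a copy of PSMD4, so its signal could come from either.

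The chaperones that build the particle moved less evenly. PSMG1, which with PSMG2 starts the alpha ring, had the lowest difference of all members in HN30 by the 75th percentile scaling, at -2.34. Under quantile normalization it was at -1.83 and PSMC3 was the lowest, at -1.84. The levels of PSMG1 were 5.82 in HN4 and 5.68 in HN4/DDP, and 6.43 in HN30 and 4.09 in HN30/DDP. This was a 5.06-fold lower signal in HN30/DDP beside a difference of -0.14 in HN4. Its probe lies at chr21:40547401-40547460 on the minus strand (hg19). Its partner PSMG2 had differences of -0.61 and -0.90 with its brighter probe and of 1.45 and 1.91 with a probe for another transcript. PSMG3, which helps complete the alpha ring with PSMG4, had levels of 5.12, 4.17, 5.62 and 4.72 and was the third lowest bright member in HN4, 1.94-fold lower. Together with PSME1 it was the exception among the 44 bright members to a lower difference in HN30 than in HN4, an order that 42 of them (37 under quantile normalization) and 50.4% of all genes had.

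The chaperones of the 19S base were the role with the smallest median difference in HN30, at -0.57. PSMD9 had levels of 4.50, 4.84, 4.73 and 4.31, and PSMD10, also known as gankyrin, of 2.32, 2.25, 2.49 and 1.92. Their differences in HN30 (-0.42 and -0.57) were among the highest 4, and neither passed 1.5-fold. PSMD5 stood apart from them in HN30 at -1.23. For PSMD10 a second probe gave -0.70 in HN30 and another, for a different transcript, 1.46. For PSMD5 a second probe gave -1.35 and another, for a different transcript, 1.21. In each gene 2 probes were thus lower and 1 was higher.

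The activators are alternative caps of the core. PSME1 and PSME2 form an interferon-inducible ring, and their probes lie 6025 bases apart on chromosome 14. PSME1 had levels of 2.75 in HN4 and 2.30 in HN4/DDP, and 2.40 in HN30 and 2.31 in HN30/DDP, and at -0.09 in HN30 it was the member closest to no difference by this scaling. Under quantile normalization it was at 0.22 and PSMD9 was closer to 0, at 0.09. PSME2 had levels of 8.005, 7.18, 7.87 and 7.05, and was 1.77-fold lower in both resistant lines, although in HN30 its difference was -0.46 under quantile normalization. In HN30 the differences of the pair were thus further apart than the error of the spots.

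PSME3, which forms a nuclear cap of its own, had levels of 3.65, 3.70, 4.21 and 2.14. It was 4.19-fold lower in HN30/DDP, the third lowest member, with a difference of 0.05 in HN4. PSME4, the large single-chain activator, had levels of 1.64, 2.05, 1.74 and 0.90, with 0.41 in HN4 and -0.84 in HN30. A second probe of PSME4 gave 0.33 and 0.51, so its direction in HN30 depends on the probe. PSMF1, an inhibitor of the core, had levels of 2.80, 2.11, 2.94 and 2.24 with the brightest of its probes, which gave differences of -0.68 and -0.70. Under quantile normalization that in HN30 was -0.37. Among its other 3 bright probes, all differences in HN30 were below 0 (-1.31 to -1.12), and in HN4 they ran from -0.49 to 0.29.

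**Figure D2:**
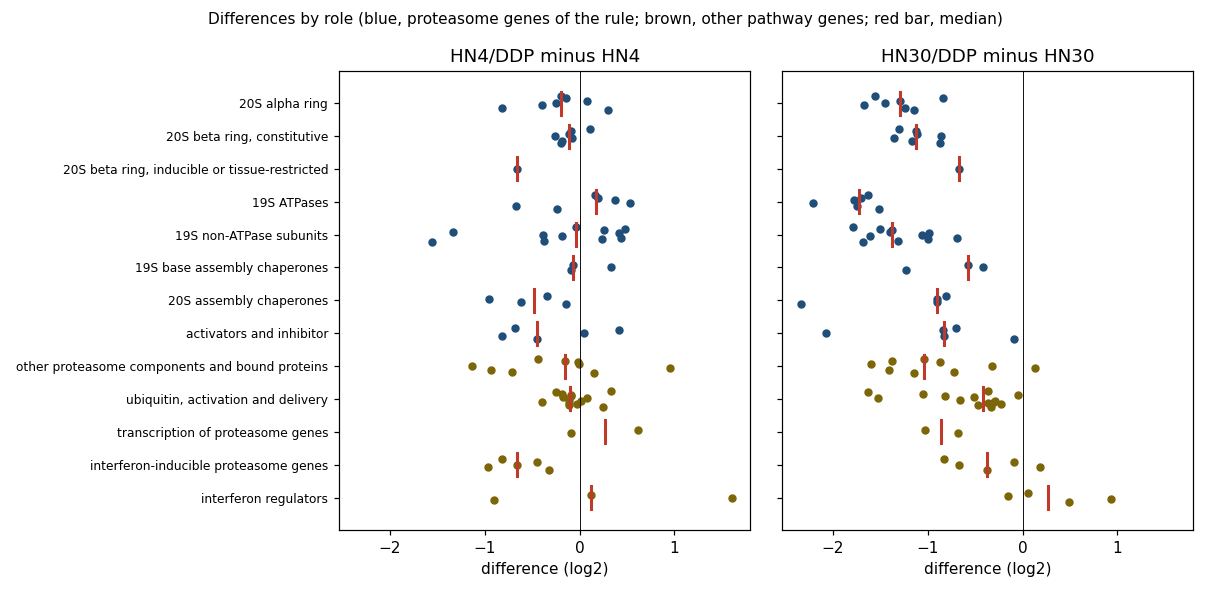
Difference of each gene (log2, resistant minus parental array) by role in HN4 and HN30, for genes bright enough on both arrays of the pair, with a red bar at the median of each role. In HN30 every proteasome gene lies below 0 by the 75th percentile scaling and the 19S ATPases have the lowest median (-1.72), while in HN4 most roles straddle 0.

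Over all members with more than 1 probe, 18 second probes of 14 genes were well above background on every array. In HN30, 14 of them had the sign of the probe used and 4 the other, and in HN4 13 and 5. The 4 in HN30 belong to PSMD10, PSMD5, PSME4 and PSMG2. RefSeq names 52 pseudogenes of 21 of the members. Whether their transcripts bind the same probes was not tested.

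On the HN30/DDP array bright genes were lower as a whole. Among genes with a mean level from 4 to 6, the median difference in HN30 was -0.56 over all 1719 genes and -1.17 over the 19 members there. Between 2 and 4 it was -0.40 over 3663 genes and -1.39 over 12 members, and above 6 it was -0.22 over 783 genes and -1.19 over 10 members. In each of these ranges the members were lower than the median of genes as bright, with 39 of these 41 members below it. In HN4 the medians of all genes in these ranges lay between -0.11 and -0.07, and 26 of 42 members were below them. With a smooth trend of difference on brightness taken off, 29 members were lower in HN30 by more than 1.5-fold, against 19.6% of all genes, 42 of 44 were below 0, against 49.7%, and their median was -0.80. PSME1 and PSMD9 were then above 0, at 0.26 and 0.08.

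**Figure D3:**
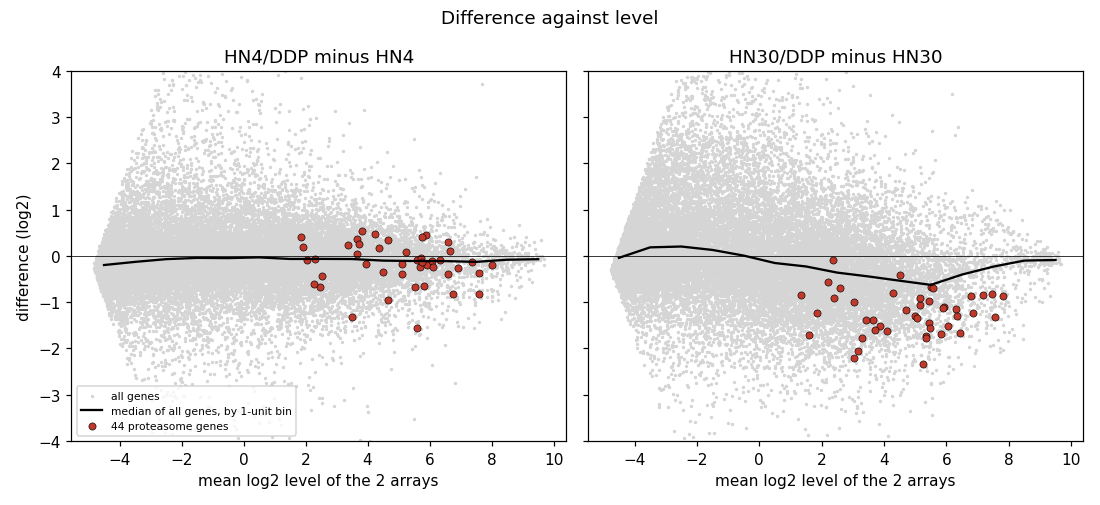
Difference (log2) against mean level of the pair of arrays for all genes well above background on both (grey), their median in bins of 1 log2 unit (black line) and 44 proteasome genes (red); genes beyond the vertical axis are not drawn. In HN30 the proteasome genes lie mostly below the black line, and in HN4 on both sides of it.

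On the level scale, HN30 was the highest and HN30/DDP the lowest array for 33 of the 44 bright members, an order held by 19.7% of all genes measured on all 4 arrays. The members were lowest on HN30/DDP in 39 of 44 cases, against 34.3%, and highest on HN30 in 37, against 33.5%. Under quantile normalization these counts were 22 for the order, 33 and 29, against 20.7%, 37.7% and 34.1% of all genes. Between the parental arrays, the median of HN30 minus HN4 was 0.36 over the 44 bright members, which lay between -0.35 for PSME1 and 0.70 for PSMC4. Between the resistant arrays, HN30/DDP minus HN4/DDP had a median of -0.82, from -2.14 for PSMC3 to 0.55 for PSMG3, and 27 members were over 1.5-fold lower in HN30/DDP, against 19.8% of all genes.

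The members lower by more than 1.5-fold in both lines were PSMA2, PSMB10, PSMC2, PSMD1, PSMD11, PSME2, PSMF1, PSMG2 and PSMG3, which is 9 of 44, against 6.51% of all genes measured on every array. None was higher in both, against 6.66%. Under quantile normalization, with the deposited log2 values or with the brightness trend removed, 3 of these 9 were lower in both by this rule. They were PSMA2, PSMD1 and PSMD11, and the shares of all genes at these settings were 6.13%, 6.03% and 4.89%. Across the 44 genes the differences in HN4 and HN30 had a Pearson r of -0.10, and across all 22149 genes of 0.28, as a description across genes of 1 array each. When the lines were taken as replicates, with the cell line as a block, limma called 0 of 45 members at an adjusted p of 0.05, and 0 of 29521 genes. The lowest adjusted p of a member was 0.44, for PSMD1, whose mean difference was -1.62 with a standard error of 0.29 and was below 0 in both lines. At an unadjusted p under 0.05 it called 7 members, all lower, and 2537 genes, which is 8.59%.

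**Figure D4:**
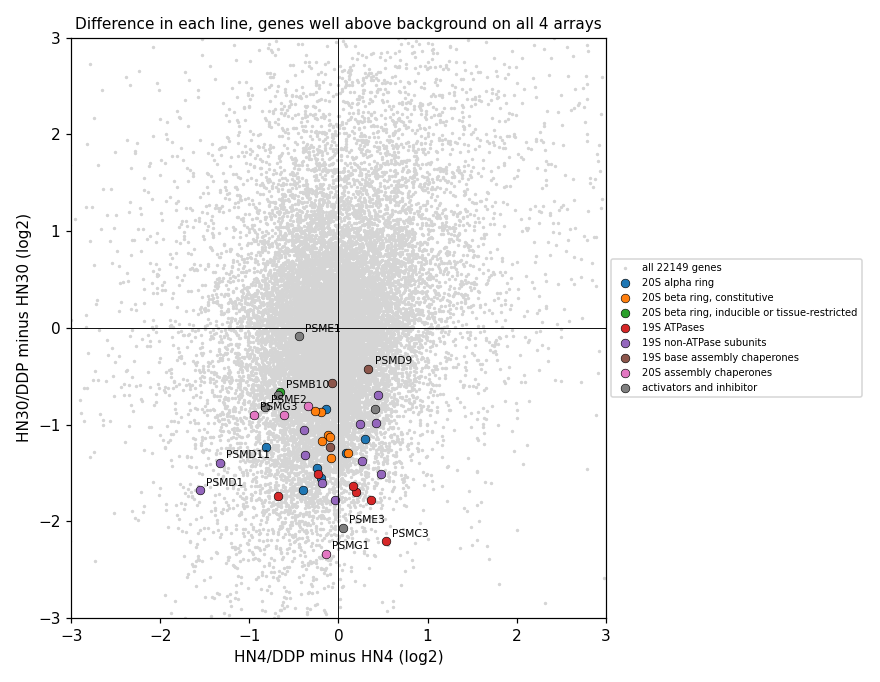
Difference in HN30 against difference in HN4 (log2, resistant minus parental array) for proteasome genes, coloured by role, and for the 22149 genes well above background on all 4 arrays (grey; those beyond the axes are not drawn). The proteasome genes all lie below 0 on the vertical axis, and PSMD1 and PSMD11 stand apart to the left.

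Promoters of 40 of the 46 members were found in RefSeq sequences (GRCh38.p14), as the 250 bases before and 50 after a transcript start. They were searched on both strands for the core of the antioxidant response element that NFE2L1 and its relatives bind (TGACNNNGC), for CCAAT, and for TGACG, the core bound by CREB family factors, a family studied in these cells. TGACG and TGACNNNGC can overlap. The 250 bases before the start are shown for the genes at the ends of the pattern, with TGACNNNGC and CCAAT in capitals where they occur.

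PSMG1 and PSMC3 had the lowest differences in HN30 (chr21:39183452-39183701, minus strand, and chr11:47426440-47426689, minus strand).
PSMG1: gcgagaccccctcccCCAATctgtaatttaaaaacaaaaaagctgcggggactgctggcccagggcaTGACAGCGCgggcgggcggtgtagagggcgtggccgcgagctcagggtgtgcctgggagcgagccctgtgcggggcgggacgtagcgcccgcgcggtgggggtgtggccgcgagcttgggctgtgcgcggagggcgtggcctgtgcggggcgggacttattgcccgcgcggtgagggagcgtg
PSMC3: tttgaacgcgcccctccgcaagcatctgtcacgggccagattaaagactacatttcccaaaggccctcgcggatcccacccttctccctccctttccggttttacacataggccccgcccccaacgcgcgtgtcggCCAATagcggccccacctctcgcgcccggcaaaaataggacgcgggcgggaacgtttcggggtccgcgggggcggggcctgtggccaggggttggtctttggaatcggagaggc
PSMD1 and PSMD11 were over 2-fold lower in both lines by the 75th percentile scaling (chr2:231056617-231056866 and chr17:32444260-32444509, both plus strand).
PSMD1: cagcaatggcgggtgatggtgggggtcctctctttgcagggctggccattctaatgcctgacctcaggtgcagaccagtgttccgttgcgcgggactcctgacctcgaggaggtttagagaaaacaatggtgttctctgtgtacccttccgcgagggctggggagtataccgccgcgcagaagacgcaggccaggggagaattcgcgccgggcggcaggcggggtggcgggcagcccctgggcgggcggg
PSMD11: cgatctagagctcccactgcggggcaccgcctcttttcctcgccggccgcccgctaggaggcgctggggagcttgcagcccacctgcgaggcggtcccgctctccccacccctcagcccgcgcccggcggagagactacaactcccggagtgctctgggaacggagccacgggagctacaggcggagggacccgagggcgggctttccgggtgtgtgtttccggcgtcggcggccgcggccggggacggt
PSME1 differed least in HN30 by the 75th percentile scaling (chr14:24135944-24136193, plus strand).
PSME1: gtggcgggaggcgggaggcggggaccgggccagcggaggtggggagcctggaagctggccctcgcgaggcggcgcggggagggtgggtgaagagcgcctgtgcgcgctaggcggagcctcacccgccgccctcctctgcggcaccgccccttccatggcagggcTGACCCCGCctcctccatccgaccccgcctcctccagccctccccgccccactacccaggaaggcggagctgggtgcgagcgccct

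The TGACNNNGC core occurred in PSMG1 and PSME1, and in PSMD1 among the 50 bases after the start that are not shown. PSMC3 held CCAAT alone of these, and PSMD11 held neither. Over the members, 14 of 40 genes had TGACNNNGC in at least 1 promoter, or 35%, against 16.1% of all 27305 genes in the table. For CCAAT the shares were 47.5% and 39.7%, and for TGACG 45% and 28.4%. Median differences in HN30 were -1.29 for the 14 bright members with TGACNNNGC and -1.26 for the 24 without, and in HN4 -0.09 and -0.18. For CCAAT they were -1.40 for 18 with it and -1.02 for 20 without in HN30, and -0.10 and -0.25 in HN4. For TGACG they were -1.16 for 16 with it and -1.33 for 22 without in HN30, and 0.12 and -0.25 in HN4. These medians are a description, with no test. A match is a description of these letters and not a site of binding.

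Other proteasome components were mostly lower in HN30. Of 9 genes of this list that were measured, 7 were lower by more than 1.5-fold and 0 were higher, with a median of -1.04, beside 23.7% and 29.4% of all genes. Under quantile normalization 5 were lower and 1 was higher, with a median of -0.72, beside a median of -0.06 over all genes tested. In HN4 3 were lower and 1 was higher, with a median of -0.15, beside 19.1% and 16.5%. POMP, the chaperone of beta ring assembly, had levels of 2.09 in HN4 and 1.16 in HN4/DDP, and 2.05 in HN30 and 0.65 in HN30/DDP, with differences of -0.93 and -1.40. UCHL5, a deubiquitinase bound to the 19S base, had the lowest difference of the list in HN30 at -1.60, and USP14, another such deubiquitinase, the lowest in HN4 at -1.13. PAAF1, a chaperone of the ATPases, was the highest in both lines, at 0.95 and 0.13.

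Genes of ubiquitin, its activation and the delivery of substrates had medians of -0.10 in HN4 and -0.42 in HN30. Of 14 genes given here, 0 were over 1.5-fold higher or lower in HN4, beside 16.5% and 19.1% of all genes. In HN30 5 were lower (3 under quantile normalization), beside 23.7%, and 0 were higher, beside 29.4%. UFD1L, a cofactor of the unfolding ATPase VCP, was the lowest in HN30 at -1.63, and DDI2, the protease that activates NFE2L1, the highest at -0.05. In HN4 the list ran from UBA6, an activating enzyme, at -0.39 to NPLOC4, another VCP cofactor, at 0.34.

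Of the factors that act on proteasome gene transcription, NFE2L1 had levels of 3.75, 3.67, 3.59 and 2.91, with differences of -0.09 in HN4 and -0.68 in HN30. NGLY1, which deglycosylates it, had differences of 0.62 and -1.03, and NFE2L2 was not well above background on any array. The immunoproteasome genes PSMB8 and PSMB9, which the rule left out, had levels of 3.63, 3.31, 3.22 and 2.84 and of 5.51, 4.54, 4.83 and 5.01. PSMB9 was thus 1.95-fold lower in HN4/DDP and had a difference of 0.18 in HN30. The 5 interferon-inducible proteasome genes (PSMB8, PSMB9, PSMB10, PSME1 and PSME2) had a median of -0.66 in HN4. All were below 0 there, beside 57.9% of all bright genes, and 3 were lower by more than 1.5-fold, beside 19.1% of all genes. In HN30 their median was -0.38 by this scaling, with 2 lower, beside 23.7%. With the brightness trend removed it was 0.03, with 0 lower, beside 19.6%. The direction of the median in HN30 thus depends on the processing. Among 4 interferon regulators, IRF9 was the highest in both lines, at 1.60 in HN4 and 0.93 in HN30, with IRF1 the lowest in HN4 at -0.91 and NLRC5 the lowest in HN30 at -0.15.

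**Figure D5:**
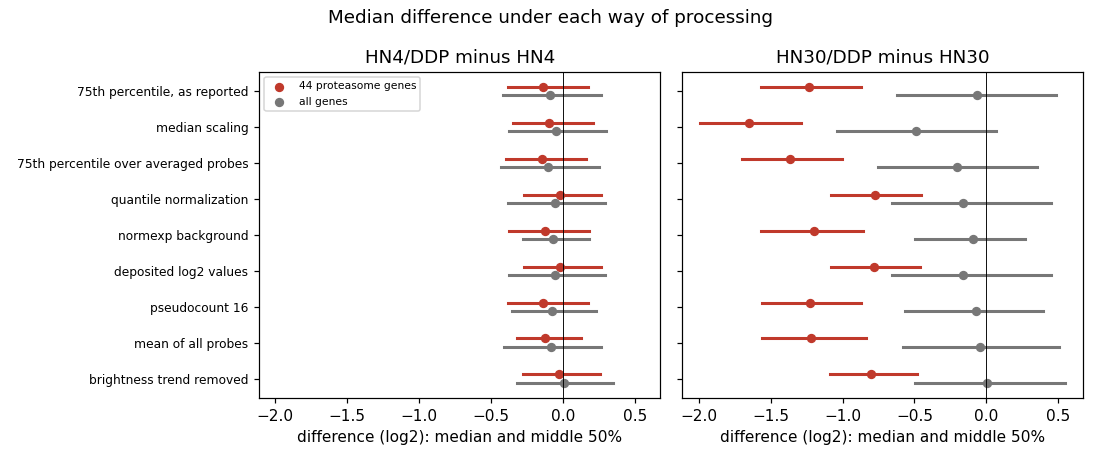
Median difference (log2) with the range of the middle 50% of the genes, for the 44 bright proteasome genes (red) and all genes above background on both (grey), under each way of processing the arrays. In HN30 the proteasome median lies between -1.65 and -0.77 under all 9, below that of all genes in each, and in HN4 both medians stay near 0.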

How the data were processed

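The authors deposited, for each array, the processed intensity of every spot, read with Agilent Feature Extraction 10.7.1.1 by the submitters' processing notes, with probe positions on hg19. Per the file headers, background was subtracted, spatial trends were removed and very low signals were replaced. A deposited table of log2 values has identical quantiles on every array, and its earlier steps are not given in the sources used. All spot signals come from 1 array per condition, and that number limits the precision.

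Here, the 75th percentile over all non-control spots of an array was subtracted from the log2 intensities. Outlier spots were left out, spots of a probe averaged, and each gene read from its probe of highest mean. A gene counted as higher or lower past 1.5-fold if well above background on the brighter array. For dim genes a bound used the lowest level well above background on that array. limma 3.58.1 (R 4.3.3) compared resistant with parental arrays, blocked by cell line, over genes above background on any array, with Benjamini-Hochberg adjustment; it has 1 residual degree of freedom.

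The members and all lists were chosen with earlier results of these data known. Named genes were the catalytic and inducible beta subunits, the activators and PSMF1, the 4 highest and 4 lowest members in each line, members dim on an array, and the ends of each pathway list; other genes with values were chosen after these were seen. Names of all 46 members were matched by accession to RefSeq. Some genes of the pathway lists are not reported here and are left out of the counts. SEM1, ECPAS and UFD1 were measured under the array's names SHFM1, KIAA0368 and UFD1L. Alternatives were median scaling, quantile normalization, normexp background correction (offset 50), the deposited log2 values, a pseudocount of 16, other filters on dim probes, a lowess trend on brightness, the mean of all probes, and folds of 2 and 4. Python 3.11.15, numpy 2.4.6 and pandas 2.3.3 were used.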

Additional observations from a re-analysis of the deposited data

Results flagged for a closer look

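Some genes had differences of opposite sign in the 2 lines, each beyond 2 times the error of the spots; with 1 array per condition the difference between lines was not tested. Among the members these were PSMC3 (0.53 in HN4 and -2.21 in HN30), PSMD13 (0.48 and -1.51), PSMD4 (0.44 and -0.69), PSMD8 (0.42 and -0.98) and PSME4 (0.41 and -0.84). PSMC3 and PSMD13 met this under all 9 ways of processing the arrays. PSMC4 met it too with median scaling. PSMC4 and PSMA1 both met it under quantile normalization, the deposited log2 values and with the brightness trend removed. PSMD4 was within that error in HN30 under quantile normalization (-0.13), the deposited log2 values (-0.12) and with the brightness trend removed (-0.20). PSME4 was at 0.36 in HN30 with the mean of all probes, and PSMD8 and PSME4 each missed the limit under at least 1 other scaling. Among the other pathway genes they were IRF1 (-0.91 and 0.49) and NGLY1 (0.62 and -1.03).

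A second probe of PSMB11, not used for the comparisons, was well above background on the HN30/DDP array alone, at a level of -4.65.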

How the results depend on the processing

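In HN30, 0 members were higher under every alternative run, apart from 1, PSMA8, when dim probes were not filtered. The count of lower members was 41 as reported, 27 under quantile normalization and 3 at 4-fold, and between 28 and 43 otherwise. The median in HN30 was -1.65 with median scaling, -0.77 with quantile normalization, -0.78 with the deposited log2 values and -0.80 with the brightness trend removed. Median scaling moved the median of all genes to -0.36, and relative to it the members were at -1.29 as before; relative to all genes they were at -0.71 under quantile normalization. In HN4, 1 member, PSMC3, was higher under quantile normalization, the deposited log2 values and the brightness trend removed, and 3 members were lower at 2-fold and 1 at 4-fold, or 2 and 0 without PSMA8, which was dim in HN4/DDP. With the mean of all probes, PSMG2 turned to 0.42, PSMA1 to -0.055 and PSMD5 to 0.02 in HN4, and PSMG2 to 0.505, PSME4 to 0.36 and PSMD10 to 0.06 in HN30. Of 368 recomputed differences of single members in each line, 353 moved by less than the error of their spots in HN4 and 186 in HN30, where median scaling and the brightness trend each moved 44 of 46 members by more, and quantile normalization and the deposited log2 values 42. An alternative chosen after the data were seen, the 75th percentile over averaged probes, gave 42 lower members in HN30. limma called 0 genes under each alternative, with 2 to 10 members at an unadjusted p under 0.05 and a lowest adjusted p of a member between 0.26 and 0.67. The replicate number could not be used for pairing, because every group holds number 1 alone. The limma fit paired the arrays by cell line instead. No array could be left out, since each group has 1.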
